A study of Homo sapiens with 9 samples.

Results

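Proteoglycans are proteins that carry long, sulfated sugar chains, the glycosaminoglycans, and they were examined here with the enzymes that build, sulfate, trim and break down those chains. Genes were taken by symbol from the arrays' probe annotation: syndecans, glypicans, the matrix core proteins, and the transferases, sulfotransferases, epimerases, synthases, sulfatases and glycosidases of these chains. The pattern of symbols matched 79 of 14884 named genes. Of these, 74 were protein-coding and 5 were antisense transcripts or a pseudogene that share the start of a symbol (DSEL-AS1, GPC5-AS1, GPC6-AS2, HS6ST2-AS1 and HYAL6P). Each gene is given by 1 probeset, the brightest over all 9 arrays.

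The cells were SMS-KCNR, an established human neuroblastoma line, and each of 3 groups had 3 arrays. The groups received 5 µM simvastatin together with 2 mM mevalonate, 5 µM simvastatin by itself, or DMSO, the solvent, and all were harvested after 30 hours. Simvastatin blocks HMG-CoA reductase, the enzyme that makes mevalonate, so adding mevalonate bypasses the block. All 3 groups come from the same line, the medium held serum, and no untreated cells or cells given mevalonate alone are analysed here. The design text calls the samples independent without saying how they were separated, so the p-values measure only how these samples spread, which may be technical. Whole-culture RNA was measured, and fewer cells of a type and less RNA per cell cannot be told apart.

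Heparan sulfate and chondroitin sulfate chains start on a core protein from the same short sugar linker. They are then polymerised, and sulfotransferases place sulfate groups that decide which growth factors, morphogens and guidance proteins a chain can bind. Hyaluronan is different: it is made at the plasma membrane without a core protein and without sulfate. In neural crest derivatives such as sympathetic neuroblasts these chains are known for tuning growth factor signalling, cell migration and axon growth.

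Arrays of the same group correlated across the named genes at r from 0.994 to 0.996, and precision is limited by having 3 arrays a group. Noradrenergic neuroblastoma markers were high on every array. The 9 of 10 that were measured averaged 9.82 to 9.88 log2 units with simvastatin plus mevalonate, 9.53 to 9.56 with simvastatin and 9.91 to 9.94 with DMSO. With simvastatin against DMSO 6 of the 9 fell (66.7%, limma, adjusted p under 0.05 over all named genes), while 7.38% of all named genes fell. With simvastatin plus mevalonate against simvastatin 5 of the 9 were higher (55.6%), against 5.31% of all named genes. Markers of blood and endothelial cells (2 of 7 measured) averaged 4.78 to 5.09 with simvastatin plus mevalonate, 4.71 to 4.98 with simvastatin and 4.65 to 4.99 with DMSO, all below the median of all probesets, 5.19. Schwann and glial markers (4 of 6 measured) averaged 5.34 to 5.42 with simvastatin plus mevalonate, 5.24 to 5.37 with simvastatin and 5.19 to 5.34 with DMSO, and 0 of them passed the test. The part of these markers in the results was not tested.

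The promoters of HS3ST3A1, HS3ST3B1 and VCAN are shown because the first pair encode sulfotransferases of the same kind that both rose with simvastatin, while VCAN was among the core protein genes that fell. Each is the 250 bases before the start of the gene, from RefSeq (GRCh38.p14), written in the direction of transcription. HS3ST3A1 lies at chr17:13601930-13602179 on the minus strand, HS3ST3B1 at chr17:14300831-14301080 on the plus strand and VCAN at chr5:83471494-83471743 on the plus strand. Capitals mark matches on either strand to GC boxes (GGGCGG, or CCGCCC when read on the other strand), CCAAT boxes (CCAAT, or ATTGG), TGACGTCA, the cyclic AMP response element, and CACGTG, an E-box.
HS3ST3A1: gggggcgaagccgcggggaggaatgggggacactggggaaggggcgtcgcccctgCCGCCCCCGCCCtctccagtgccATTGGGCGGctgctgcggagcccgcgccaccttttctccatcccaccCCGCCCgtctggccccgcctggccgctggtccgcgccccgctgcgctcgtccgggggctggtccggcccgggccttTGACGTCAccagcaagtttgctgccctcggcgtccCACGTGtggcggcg
HS3ST3B1: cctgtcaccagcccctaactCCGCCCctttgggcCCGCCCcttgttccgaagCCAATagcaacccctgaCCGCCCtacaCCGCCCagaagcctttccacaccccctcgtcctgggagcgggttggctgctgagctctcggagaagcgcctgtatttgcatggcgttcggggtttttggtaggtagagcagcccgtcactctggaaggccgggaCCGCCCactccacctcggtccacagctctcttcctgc
VCAN: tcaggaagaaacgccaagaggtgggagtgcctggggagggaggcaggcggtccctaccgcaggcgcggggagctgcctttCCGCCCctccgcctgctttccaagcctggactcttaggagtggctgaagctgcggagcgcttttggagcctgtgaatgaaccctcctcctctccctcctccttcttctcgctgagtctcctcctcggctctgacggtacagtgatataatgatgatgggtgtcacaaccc

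The HS3ST3A1 window was 76.0% G and C and held 4 GC boxes, of which 1 overlapped the CCAAT box, TGACGTCA at 49 to 42 bases before the start and CACGTG at 14 to 9 bases before it. The HS3ST3B1 window was 64.0% G and C, with 5 GC boxes and 1 CCAAT box. The VCAN window was 60.8% G and C, with 1 GC box and 0 CCAAT boxes. Among 35116 promoter windows of all genes, 42.6% held a GC box, 32.0% a CCAAT box, 6.34% CACGTG and 1.65% TGACGTCA. Of the 84 windows that belong to 64 of these proteoglycan and glycosaminoglycan genes, 60 (71.4%) held a GC box and 18 (21.4%) a CCAAT box. The windows of all genes, from 27305 genes, were not limited to protein-coding genes or matched for G and C, so the shares are not like for like. The sterol regulatory element TCACNCCAC, searched on both strands, matched 2 of the 84 windows (2.38%) and 0.883% of all windows.

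To determine how simvastatin altered these genes, its arrays were set against those with DMSO. The largest falls were in genes of matrix and cell-surface core proteins, LUM, DCN, SDC2 and VCAN, which were 1.79- to 2.21-fold lower. HAS2, which makes hyaluronan, and SULF2, which removes sulfate from heparan sulfate outside the cell, fell as well. HS3ST3A1, a heparan sulfate 3-O-sulfotransferase, and EXT1, the heparan sulfate polymerase, rose 2.09-fold and 1.53-fold. In all, 20 of the 79 genes (25.3%) passed an adjusted p of 0.05 in limma, against 13.4% of all named genes. Of these, 6 rose and 14 fell, while 5.98% of all named genes rose and 7.38% fell.

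The median change was 0.016 log2 units over the 79 genes and 0.005 over all named genes, and the median absolute change was 0.136 against 0.097. The simvastatin and DMSO arrays did not overlap for 27 of the 79 genes (34.2%) and for 28.6% of all named genes. The share called differed by level. Of the 53 genes at or above the probeset median, 18 passed (34.0%), against 18.5% of the 10164 named genes that bright. Below it 2 of 26 passed (7.69%), HS3ST3B1 and HS6ST2. Of all 14884 named genes 1988 passed, 1879 of them among the 10164 bright ones, so few dim named genes passed. The 13.4% over both levels is therefore not the share to set beside 7.69%. The changes of the 59 genes that did not pass lay between -0.28 and 0.33.

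**Figure D1:**
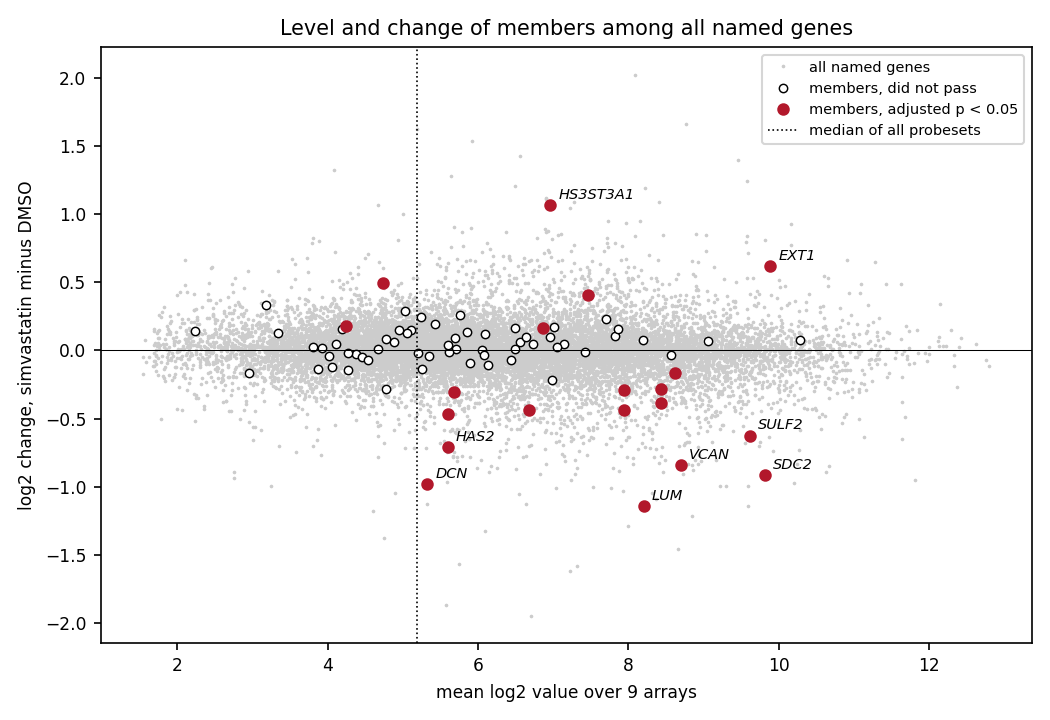
Change with simvastatin against DMSO (vertical axis, log2) by mean level over 9 arrays (horizontal axis, log2) for all named genes (grey) and for the proteoglycan and glycosaminoglycan genes (open, did not pass; red, adjusted p under 0.05 in limma). The red points lie mostly right of the dotted line at 5.19, the median of all probesets, and run from LUM at -1.14 to HS3ST3A1 at 1.06.

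Core proteins were examined first. Of 20 core protein genes, 6 fell with simvastatin and 0 rose (30.0%). Of all named genes 13.4% passed, 5.98% higher and 7.38% lower. By class, 3 of the 10 syndecans and glypicans fell, 1 of the 4 hyaluronan-binding chondroitin sulfate cores, 2 of the 4 small leucine-rich cores, and 0 of the 2 basement-membrane cores.

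LUM encodes lumican, a small leucine-rich matrix protein that spaces collagen fibrils. It read 8.31, 8.26 and 8.26 log2 units with simvastatin plus mevalonate, 7.74, 7.58 and 7.46 with simvastatin and 8.68, 8.73 and 8.80 with DMSO. All 3 simvastatin arrays lay below every other array, and the 3 groups did not overlap. The fall of 2.21-fold (-1.14 ± 0.07, log2 change ± SE, adjusted p = 3.19e-05) was the largest among these genes. DCN, its neighbour among the protein-coding genes of chromosome 12, encodes decorin, which also binds collagen and sequesters growth factors. It read 5.41, 5.37 and 5.37 with simvastatin plus mevalonate, 4.86, 4.81 and 4.75 with simvastatin and 5.69, 5.77 and 5.90 with DMSO. The 3 groups were again separate, with simvastatin lowest and DMSO highest, and the simvastatin arrays lay below the probeset median. DCN was 1.97-fold lower with simvastatin (-0.98 ± 0.06, adjusted p = 2.96e-05).

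BGN, which encodes biglycan and was the brightest of the small leucine-rich genes, changed by 0.08 and did not pass. FMOD, for fibromodulin, did not pass at 0.26. KERA, the coding neighbour of LUM on its other side and itself a proteoglycan gene of this family, stood at 0.20 ± 0.12 (adjusted p = 0.361) and is named here after its values were seen. LUM and DCN are also known as products of fibroblasts. Of 8 fibroblast and mesenchymal markers 3 were measured, all above the probeset median, and they averaged 7.51 to 7.58 with simvastatin plus mevalonate, 7.21 to 7.39 with simvastatin and 7.46 to 7.55 with DMSO. TWIST1, a transcription factor among them, fell (-0.49 ± 0.05, adjusted p = 0.000237), while THY1 stood at -0.12 and PRRX1 at 0.08. Their part in the falls of LUM and DCN was not tested.

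SDC2 encodes syndecan-2, a transmembrane heparan sulfate proteoglycan. It read 10.02, 10.05 and 10.00 with simvastatin plus mevalonate, 9.34, 9.19 and 9.24 with simvastatin and 10.20, 10.18 and 10.14 with DMSO. The simvastatin arrays formed a group well below both others, which differed far less from each other. SDC2 was 1.89-fold lower with simvastatin (-0.92 ± 0.05, adjusted p = 1.72e-05). SDC4, for the syndecan of focal adhesions, moved the other way without passing (0.23 ± 0.06, adjusted p = 0.0522). Its simvastatin arrays were nonetheless above all others, at 7.45, 7.56 and 7.59 with simvastatin plus mevalonate, 7.99, 7.86 and 7.83 with simvastatin and 7.57, 7.70 and 7.72 with DMSO. SDC1 and SDC3 stood at 0.04 and 0.01.

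Glypicans are heparan sulfate proteoglycans held in the membrane by a lipid anchor. GPC3 read 5.55, 5.56 and 5.63 with simvastatin plus mevalonate, 5.40, 5.45 and 5.29 with simvastatin and 5.79, 5.71 and 6.03 with DMSO. The arrays with both compounds lay between the other groups, with no overlap. It was 1.38-fold lower with simvastatin (-0.47 ± 0.08, adjusted p = 0.00689). GPC6, the brightest glypican gene, read 8.61, 8.62 and 8.59 with simvastatin plus mevalonate, 8.47, 8.53 and 8.59 with simvastatin and 8.66, 8.69 and 8.75 with DMSO. Its fall was small (-0.17 ± 0.05, adjusted p = 0.0443) and did not pass without any 1 of 8 of the 9 arrays, all but simvastatin replicate 3, where the adjusted p ran from 0.0658 to 0.138. GPC1, GPC2, GPC4 and GPC5 did not pass, with changes of 0.06, 0.10, -0.02 and -0.28.

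VCAN encodes versican, a large chondroitin sulfate proteoglycan that binds hyaluronan and loosens the matrix around migrating cells. It read 8.88, 8.76 and 8.87 with simvastatin plus mevalonate, 8.26, 8.18 and 8.19 with simvastatin and 9.04, 9.02 and 9.09 with DMSO. No group overlapped another, and the arrays with both compounds were nearer to DMSO. VCAN was 1.79-fold lower with simvastatin (-0.84 ± 0.05, adjusted p = 2.53e-05). A dimmer probeset of the gene, at a mean of 2.57, stood at 0.03 ± 0.14, and the mean of both probesets fell by 0.41. NCAN, BCAN and ACAN, the other members of this class, stood at -0.04, -0.01 and 0.06. The basement-membrane genes HSPG2 (perlecan) and AGRN (agrin) were both at 0.01.

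**Figure D2:**
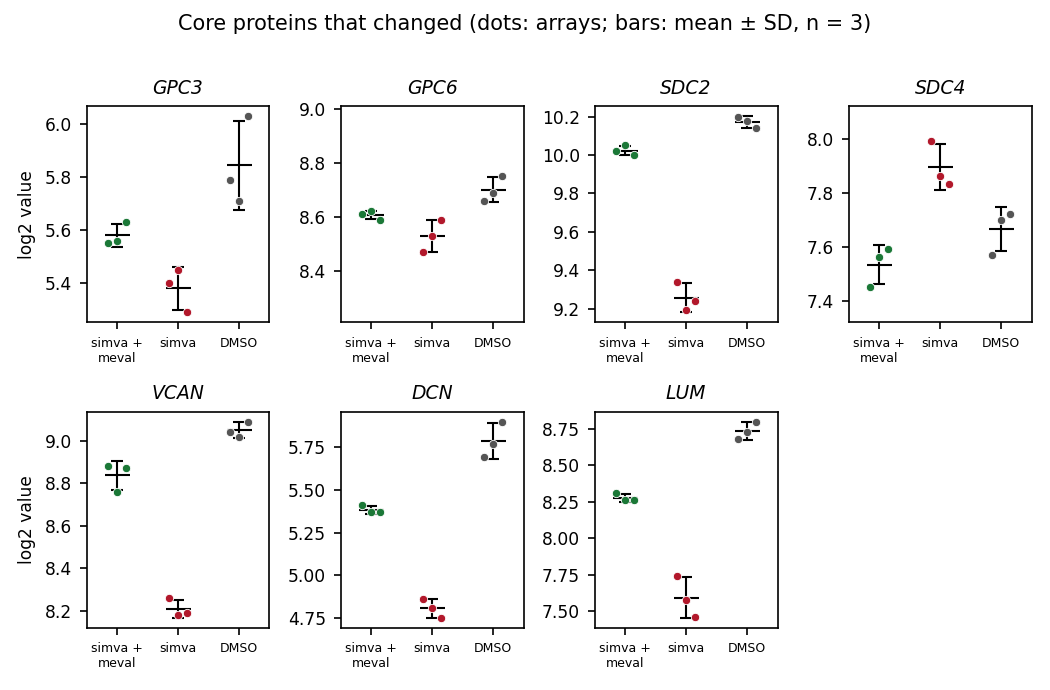
Log2 values (vertical axes) of the 7 core protein genes that passed the test in any comparison, on each of 3 arrays with simvastatin plus mevalonate, simvastatin or DMSO (horizontal axes; dots are arrays, bars the mean ± SD). The simvastatin arrays are lowest for LUM, DCN, SDC2, VCAN and GPC3 and highest for SDC4, and for GPC6 the highest of them, 8.59, equals the lowest array with simvastatin plus mevalonate.

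The enzymes moved in both directions, as did all named genes (5.98% rose and 7.38% fell). Of 54 enzyme genes, 6 rose with simvastatin and 8 fell (25.9%, against 13.4% of all named genes in either direction). Neither linker enzyme measured passed: XYLT1 and XYLT2, the xylosyltransferases that begin every heparan or chondroitin sulfate chain, stood at 0.14 and -0.09.

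Chain polymerisation of heparan sulfate is carried out by EXT1 with EXT2. EXT1 read 9.53, 9.59 and 9.51 with simvastatin plus mevalonate, 10.35, 10.35 and 10.39 with simvastatin and 9.74, 9.74 and 9.75 with DMSO. The simvastatin arrays were above all others, and the arrays with both compounds were below DMSO. EXT1 rose 1.53-fold with simvastatin (0.62 ± 0.04, adjusted p = 3.42e-05), while EXT2 stood at 0.11. EXTL2, whose product can stop a chain by capping the linker, read 8.66, 8.59 and 8.49 with simvastatin plus mevalonate, 8.18, 8.27 and 8.07 with simvastatin and 8.65, 8.54 and 8.49 with DMSO. It was lower only on the simvastatin arrays, by 1.30-fold (-0.38 ± 0.07, adjusted p = 0.00816). EXTL1 and EXTL3 did not pass.

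Chain modification covers the enzymes that remove acetyl groups, turn glucuronic into iduronic acid and add sulfate. Of these 15 genes 3 rose and 2 fell (33.3%, against 13.4% of all named genes). HS3ST3A1 encodes a 3-O-sulfotransferase, which adds the rarest sulfate of the chain, and is the gene whose promoter is printed first. It read 6.19, 6.32 and 6.12 with simvastatin plus mevalonate, 7.94, 7.98 and 7.68 with simvastatin and 6.81, 6.80 and 6.80 with DMSO. The 3 groups were far apart, simvastatin highest and the arrays with both compounds lowest. It rose 2.09-fold with simvastatin (1.06 ± 0.08, adjusted p = 0.000108), the largest rise among these genes.

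HS3ST3B1, on the same chromosome, encodes an enzyme with a nearly identical catalytic domain, and whether the probes tell the pair apart was not tested. It read 4.53, 4.60 and 4.66 with simvastatin plus mevalonate, 4.93, 5.03 and 5.18 with simvastatin and 4.78, 4.62 and 4.26 with DMSO. All 9 arrays were below the probeset median, and the DMSO arrays spread widely. The rise was 0.50 ± 0.12 (adjusted p = 0.0326), and the call was lost when any of several single arrays was left out. The adjusted p was 0.0657 without DMSO replicate 2, and 0.0772 and 0.104 without the second and the third simvastatin replicate. It was 0.0529, 0.0562 and 0.0525 with simvastatin plus mevalonate replicate 1, 2 or 3 left out. Those last arrays enter only through the shared spread, and the change stayed at 0.50 without them.

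HS3ST5, another 3-O-sulfotransferase gene, went the other way. It read 8.57, 8.52 and 8.49 with simvastatin plus mevalonate, 8.34, 8.27 and 8.15 with simvastatin and 8.52, 8.49 and 8.59 with DMSO. Only the simvastatin arrays were set apart, by -0.29 ± 0.06 (adjusted p = 0.012). HS3ST1, HS3ST2, HS3ST4 and HS3ST6 did not pass.

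NDST1, which removes acetyl groups and adds N-sulfate ahead of the other modifications, read 8.00, 7.96 and 7.96 with simvastatin plus mevalonate, 7.83, 7.74 and 7.78 with simvastatin and 8.08, 8.07 and 8.06 with DMSO. The groups did not overlap, though they were close together, and the fall was -0.29 ± 0.04 (adjusted p = 0.00157). HS6ST2, a 6-O-sulfotransferase gene among the dim ones, read 4.25, 4.27 and 4.25 with simvastatin plus mevalonate, 4.35, 4.25 and 4.38 with simvastatin and 4.17, 4.11 and 4.17 with DMSO. Its rise of 0.18 ± 0.05 (adjusted p = 0.0384) did not pass without any 1 of 8 of the 9 arrays, all but simvastatin replicate 2, where the adjusted p ran from 0.0593 to 0.12. GLCE, the epimerase, HS2ST1, the 2-O-sulfotransferase, and HS6ST1 stood at 0.16, -0.03 and 0.08 without passing.

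SULF2 encodes a sulfatase that takes 6-O-sulfate off finished chains at the cell surface. It read 9.76, 9.75 and 9.73 with simvastatin plus mevalonate, 9.24, 9.22 and 9.25 with simvastatin and 9.89, 9.85 and 9.84 with DMSO. Arrays within each group were nearly equal, and simvastatin lay clearly below both other groups. SULF2 was 1.54-fold lower with simvastatin (-0.63 ± 0.04, adjusted p = 2.48e-05). A dimmer probeset of the gene, at a mean of 5.56, stood at 0.02 ± 0.08, and the mean of both probesets fell by 0.30. Its relative SULF1 (-0.03) and the heparanase genes HPSE (0.29) and HPSE2 (-0.12), whose mean levels were below the probeset median, did not pass.

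**Figure D3:**
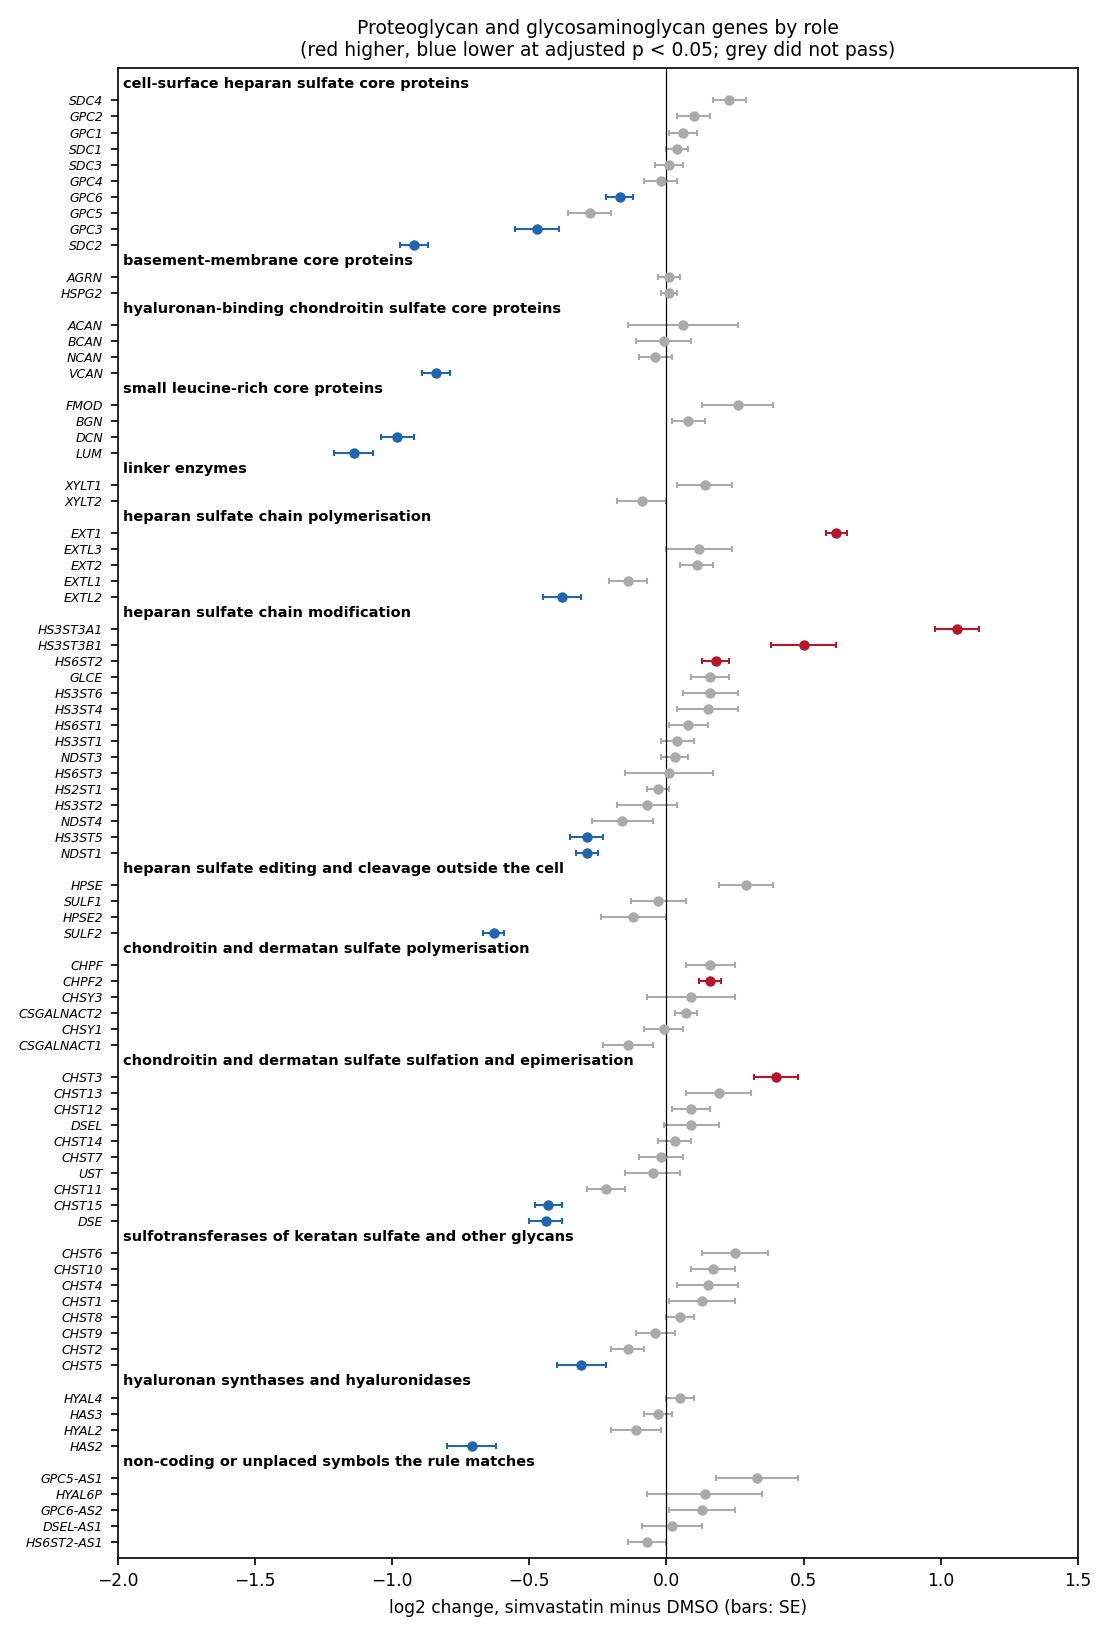
Log2 change with simvastatin against DMSO (horizontal axis; bars are SE) for all 79 genes, grouped by role down the page. Red points rose and blue points fell at an adjusted p under 0.05, and grey points did not pass; the 6 core protein genes that passed are all blue, while the enzyme genes that passed are split between 6 red and 8 blue.

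For chondroitin and dermatan sulfate, 1 of 6 polymerisation genes rose (16.7%, near the 13.4% of all named genes that passed). Of 10 genes of sulfation and epimerisation 1 rose and 2 fell (30.0%). CHST15 adds a sulfate to an already sulfated unit and so makes the doubly sulfated chondroitin sulfate E. It read 8.18, 8.07 and 8.05 with simvastatin plus mevalonate, 7.65, 7.72 and 7.58 with simvastatin and 8.06, 8.06 and 8.14 with DMSO. Simvastatin alone was low, and the other groups overlapped each other. The fall was 1.35-fold (-0.43 ± 0.05, adjusted p = 0.00105). DSE, the epimerase that turns chondroitin into dermatan sulfate, read 6.98, 6.82 and 6.88 with simvastatin plus mevalonate, 6.27, 6.35 and 6.41 with simvastatin and 6.79, 6.81 and 6.75 with DMSO. It was lowest on the simvastatin arrays, 1.36-fold below DMSO (-0.44 ± 0.06, adjusted p = 0.00132).

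CHST3, the main chondroitin 6-O-sulfotransferase gene, rose. It read 7.14, 7.42 and 7.41 with simvastatin plus mevalonate, 7.68, 7.81 and 7.69 with simvastatin and 7.31, 7.25 and 7.41 with DMSO, and the simvastatin arrays were above all others. The rise was 1.32-fold (0.40 ± 0.08, adjusted p = 0.0138), and without DMSO replicate 2 the adjusted p was 0.053. CHPF2, a chain polymerising factor gene, read 6.82, 6.89 and 6.83 with simvastatin plus mevalonate, 6.98, 6.94 and 6.96 with simvastatin and 6.80, 6.74 and 6.86 with DMSO. This small rise (0.16 ± 0.04, adjusted p = 0.0437) did not pass without any 1 of 8 of the 9 arrays, all but DMSO replicate 3, where the adjusted p ran from 0.0561 to 0.132. CSGALNACT2, the brightest gene of chondroitin polymerisation, stood at 0.07, and the 4-O-sulfotransferase genes CHST11, CHST12, CHST13 and CHST14 at -0.22, 0.09, 0.19 and 0.03.

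HAS2 encodes a hyaluronan synthase. It read 5.73, 5.76 and 5.63 with simvastatin plus mevalonate, 5.06, 5.19 and 5.30 with simvastatin and 5.73, 5.99 and 5.95 with DMSO. The simvastatin arrays were below all others, and the other groups overlapped each other. HAS2 was 1.63-fold lower with simvastatin (-0.71 ± 0.09, adjusted p = 0.000964). HAS3 stood at -0.03, and the hyaluronidase-family genes HYAL2 and HYAL4 at -0.11 and 0.05. Among 8 sulfotransferases of keratan sulfate and other glycans only CHST5 passed (12.5%, near the 13.4% of all named genes). CHST5 stood at -0.31 ± 0.09 with an adjusted p of 0.04999. It read 5.69, 5.69 and 5.71 with simvastatin plus mevalonate, 5.41, 5.69 and 5.46 with simvastatin and 5.95, 5.84 and 5.69 with DMSO, so simvastatin and DMSO touched at 5.69. That call was lost without any 1 of 7 of the 9 arrays (adjusted p from 0.078 to 0.152), all but simvastatin replicate 2 and DMSO replicate 3. CHST10, the brightest gene of that group, stood at 0.17 and did not pass.

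**Figure D4:**
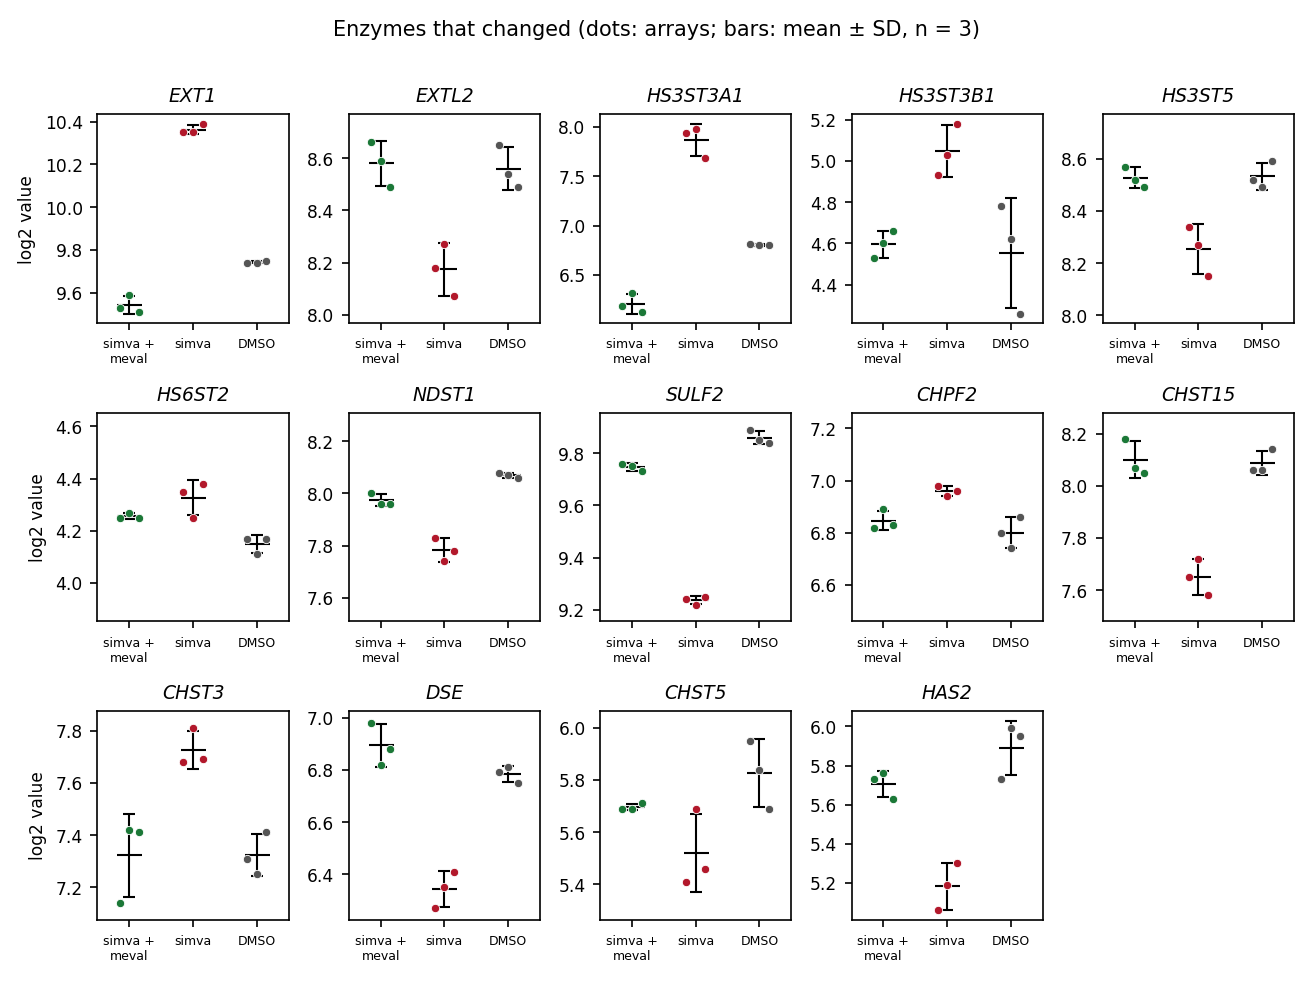
Log2 values (vertical axes) of the 14 enzyme genes that passed the test in any comparison, on each of 3 arrays with simvastatin plus mevalonate, simvastatin or DMSO (horizontal axes; dots are arrays, bars the mean ± SD). The simvastatin arrays stand highest for HS3ST3A1, EXT1, CHST3, HS3ST3B1 and CHPF2 and lowest for SULF2, HAS2, DSE, CHST15, EXTL2, HS3ST5 and NDST1.

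To determine what mevalonate did when it was added to the drug, simvastatin plus mevalonate was set against simvastatin. The core protein genes SDC2, VCAN, LUM and DCN and the enzyme genes DSE, HAS2, SULF2, CHST15, EXTL2, HS3ST5 and NDST1 were higher with both compounds. HS3ST3A1, EXT1, CHST3 and SDC4 were lower. In all, 15 of 79 genes passed (19.0%), against 11.0% of all named genes, with 11 higher and 4 lower, against 5.31% and 5.72%. The same simvastatin arrays enter this comparison and the one with DMSO, so the comparisons share chance values, and each is given beside the other without a test of their likeness.

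HS3ST3A1 was 3.16-fold lower with both compounds than with simvastatin (-1.66 ± 0.08, adjusted p = 1.6e-05), and was 1.06 higher with simvastatin than with DMSO. EXT1 was 1.76-fold lower (-0.82 ± 0.04, adjusted p = 1.43e-05), against 0.62 for simvastatin over DMSO. SDC2 was 1.70-fold higher with both compounds (0.77 ± 0.05, adjusted p = 4.71e-05), against -0.92 for simvastatin over DMSO. LUM was 1.61-fold higher (0.69 ± 0.07, adjusted p = 0.000519), against -1.14, and VCAN 1.55-fold higher (0.63 ± 0.05, adjusted p = 0.00014), against -0.84.

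Of the smaller differences, DCN stood at 0.58 ± 0.06 (adjusted p = 0.000502), DSE at 0.55 ± 0.06 (0.000533) and HAS2 at 0.52 ± 0.09 (0.00549). SULF2 stood at 0.51 ± 0.04 (8.49e-05), CHST15 at 0.45 ± 0.05 (0.0011) and EXTL2 at 0.40 ± 0.07 (0.00759). The mean over both probesets gave 0.40 for VCAN and 0.22 for SULF2. SDC4, which had missed the threshold against DMSO, was 1.29-fold lower with both compounds than with simvastatin (-0.36 ± 0.06, adjusted p = 0.00806).

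The calls on HS3ST5, NDST1 and CHST3 were each lost when 1 array was left out, though the changes themselves moved little. HS3ST5 was higher by 0.28 ± 0.06 (adjusted p = 0.016) and NDST1 by 0.19 ± 0.04 (adjusted p = 0.015). Without simvastatin plus mevalonate replicate 1, HS3ST5 stood at 0.26 (adjusted p = 0.0623) and NDST1 at 0.18 (adjusted p = 0.0582). CHST3 was lower (-0.40 ± 0.08, adjusted p = 0.017), and without simvastatin replicate 2 it stood at -0.36 (adjusted p = 0.0586). HS3ST3B1 did not pass in this comparison (-0.45 ± 0.12, adjusted p = 0.0536), although its simvastatin arrays lay above all others. It passed without DMSO replicate 1 (0.0373) or 3 (0.0107). GPC3 stood at 0.20 (adjusted p = 0.183), GPC6 at 0.07, CHST5 at 0.18, HS6ST2 at -0.07 and CHPF2 at -0.11, none of them past the threshold. The groups did not overlap for 27 of 79 genes (34.2%), against 27.3% of all named genes.

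**Figure D5:**
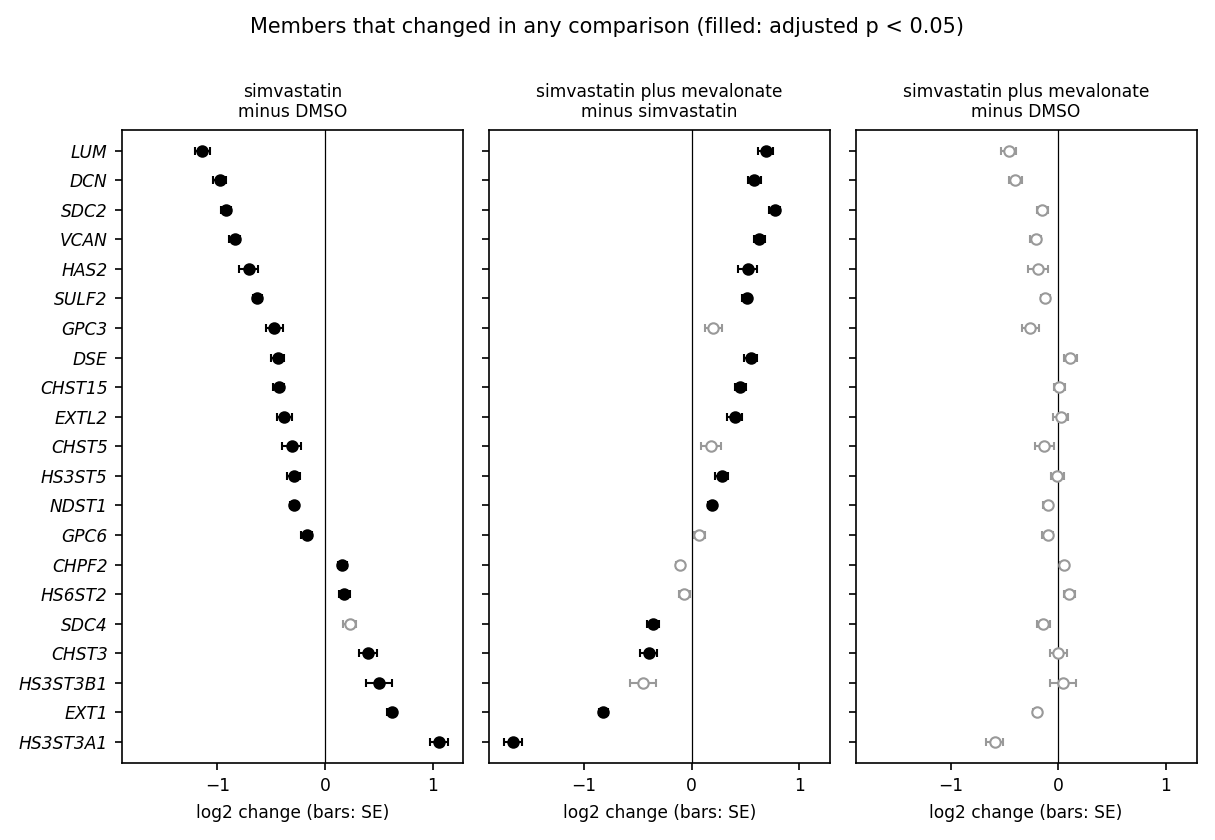
Log2 change (horizontal axes; bars are SE) of the 21 genes that passed in any comparison, for simvastatin minus DMSO, simvastatin plus mevalonate minus simvastatin, and simvastatin plus mevalonate minus DMSO. Filled points passed an adjusted p of 0.05 in limma; there are 20 in the left panel, 15 in the middle and 0 on the right, where LUM, DCN and HS3ST3A1 lie farthest from 0 at -0.46, -0.40 and -0.59.

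Simvastatin plus mevalonate was then set against DMSO, to see how far cells given both compounds stood from cells given neither. None of the 79 genes passed in limma, and 0.0739% of all named genes did (0.0336% higher and 0.0403% lower). At an unadjusted p under 0.05 there were 10 of 79 (12.7%), all lower with both compounds, against 1635 of all named genes (11.0%), of which 946 were lower and 689 higher. The groups did not overlap for 15 of 79 (19.0%), against 16.5% of all named genes.

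HS3ST3A1 was 1.51-fold lower with both compounds than with DMSO (-0.59 ± 0.08, adjusted p = 0.0587), with all 3 arrays below every DMSO array. Without simvastatin replicate 3, which enters only through the shared spread, its adjusted p was 0.0311. LUM stood at -0.46 ± 0.07 (adjusted p = 0.0638, and 0.0475 without simvastatin replicate 1) and DCN at -0.40 ± 0.06 (adjusted p = 0.0587). EXT1 stood at -0.20 ± 0.04 (adjusted p = 0.113). None of these 4 genes overlapped between the groups. They passed when dim genes were left out of the test, with adjusted p-values of 0.0199 for HS3ST3A1 and DCN, 0.0241 for LUM and 0.0432 for EXT1. With an intensity trend and robust variances in limma 6 genes passed, these 4 with VCAN (0.031) and SULF2 (0.0482). GPC3 (-0.26), DSEL (-0.24), VCAN (-0.21), SDC2 (-0.15), SULF2 (-0.12), NDST1 (-0.10), GPC6 (-0.10) and GPC1 (-0.05) also lay wholly below DMSO, while GPC2 (0.13), DSE (0.11) and HS6ST2 (0.10) lay wholly above it. None of these passed with the settings used throughout. CHST3 at 0.00, CHST15 at 0.01, HS3ST5 at -0.01 and EXTL2 at 0.02 were closest to DMSO among the genes named here as changed by simvastatin, and the values of all 4 fell on both sides of 0 over the settings tried.

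Genes around the pathway were counted by list. The lists were chosen with earlier results of these data known, so their shares describe the lists and were not tested. Of 108 list entries, a few of them older symbols of genes also listed, 66 were measured. Of these 66 genes, 17 (25.8%) passed with simvastatin against DMSO, 9 higher and 8 lower, against 13.4% of all named genes (5.98% higher and 7.38% lower). At or above the probeset median, where 46 of the 66 lay, 18.5% of named genes passed. With both compounds against simvastatin 17 passed, 7 higher and 10 lower, against 11.0% of all named genes. With both compounds against DMSO 0 passed in limma, and 8 had an unadjusted p under 0.05. Of 8 measured genes of sugar-nucleotide and sulfate donor supply, 3 rose and 1 fell with simvastatin against DMSO. UGDH, which makes the glucuronic acid donor, read 9.87, 9.80 and 9.83 with simvastatin plus mevalonate, 10.25, 10.19 and 10.29 with simvastatin and 9.90, 9.80 and 9.88 with DMSO. Its simvastatin arrays stood alone above the rest (0.38 ± 0.05, adjusted p = 0.00101). GFPT1 and UAP1, which act early and late in making the amino sugar donor, rose by 0.39 ± 0.04 (adjusted p = 0.000321) and 0.26 ± 0.05 (adjusted p = 0.0131).

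PAPSS2, a synthase of the sulfate donor PAPS, read 5.73, 5.75 and 5.72 with simvastatin plus mevalonate, 5.20, 5.11 and 5.05 with simvastatin and 5.74, 5.67 and 5.95 with DMSO. It was 1.59-fold lower with simvastatin (-0.67 ± 0.07, adjusted p = 0.000628), and the simvastatin arrays were below all others. PAPSS1, the other synthase, stood at 0.03 ± 0.04 (adjusted p = 0.683) and is named after its values were seen. These 4 of 8 measured supply genes also passed with both compounds against simvastatin, UGDH at -0.41, GFPT1 at -0.33, UAP1 at -0.29 and PAPSS2 at 0.61.

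Heparan sulfate binds many secreted factors, and of 18 measured ligand genes 2 rose and 5 fell with simvastatin. That was 38.9% of the list, against 13.4% of all named genes. Of named genes at or above the probeset median, where 12 of the 18 lay, 18.5% passed. The list was chosen with earlier results of these data known, so its share describes the list and was not tested. HGF, a growth factor that binds heparan sulfate, read 7.34, 7.13 and 7.12 with simvastatin plus mevalonate, 8.46, 8.50 and 8.43 with simvastatin and 7.47, 7.56 and 7.50 with DMSO. It was 1.93-fold higher with simvastatin (0.95 ± 0.06, adjusted p = 4.28e-05), and no groups overlapped. VEGFA, an angiogenic factor, rose by 0.66 ± 0.09 (adjusted p = 0.0017). FGF10, a fibroblast growth factor gene, fell (-0.75 ± 0.07, adjusted p = 0.000267). SLIT3, an axon guidance gene, read 10.82, 10.80 and 10.72 with simvastatin plus mevalonate, 10.26, 10.28 and 10.34 with simvastatin and 10.73, 10.79 and 10.81 with DMSO, a fall of 0.48 with simvastatin (adjusted p = 0.000267). The simvastatin arrays were alone at the low end.

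The remaining falls in that list, named after their values were seen, were SLIT1 (-0.48, adjusted p = 0.000667), SLIT2 (-0.35, adjusted p = 0.0141) and PTN, for the heparin-binding growth factor pleiotrophin (-0.45, adjusted p = 0.0357). SLIT2 did not pass without DMSO replicate 3 (0.0531). The PTN call was lost, with adjusted p-values from 0.0522 to 0.115, when replicate 2 or 3 of DMSO, replicate 2 or 3 of simvastatin, or replicate 1 or 2 of simvastatin plus mevalonate was left out. With both compounds against simvastatin 6 of the 18 ligand genes passed (33.3%), against 11.0% of all named genes. Of these, 4 were higher, among them FGF10 (0.75), SLIT3 (0.49) and SLIT1 (0.39), and 2 were lower, HGF (-1.27) and VEGFA (-0.70).

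Among 15 other core protein genes 2 passed with simvastatin against DMSO (13.3%, near the 13.4% of all named genes). NRP1, a guidance and growth factor co-receptor that can carry a glycosaminoglycan chain, fell (-0.48 ± 0.06, adjusted p = 0.00131). CSPG4, the chondroitin sulfate proteoglycan NG2, rose (0.26 ± 0.06, adjusted p = 0.0238). The CSPG4 call was lost without DMSO replicate 2 (0.08) and without simvastatin replicate 1 (0.0569) or 3 (0.069). Of 12 hyaluronan receptors, link proteins and depolymerases 1 passed (8.33%, below that share), HMMR at -1.46, a gene that is known also as one of the mitotic spindle. HAPLN1, the link protein gene next to VCAN on chromosome 5, stood at 0.05 ± 0.09 (adjusted p = 0.804) and is named after its values were seen. Of 9 lysosomal genes 2 rose and 0 fell (22.2%), IDS and HGSNAT, which act in heparan sulfate breakdown. IDS rose by 0.20 ± 0.04 (adjusted p = 0.0107) and HGSNAT by 0.32 ± 0.05 (adjusted p = 0.00479). With all probesets in the fit the adjusted p of IDS was 0.054.

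TIMP3, an inhibitor of the proteases that cut proteoglycan cores, rose among 4 genes of that list (0.72 ± 0.07, adjusted p = 0.000267). The mean over its probesets stood at 0.20 with an adjusted p of 0.222. PXYLP1, the linker phosphatase gene and the only linker gene measured outside the pattern of symbols, did not pass.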

How the data were processed

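Total RNA from 9 samples of SMS-KCNR cells was labelled with biotin and hybridised to Affymetrix whole-transcript arrays, per the labels' protocols. The deposited values are log2 expression values made by the authors, 1 per probeset and array; the scale was read from the values. Per the submitters' processing notes, GCRMA and HOMER were used; their versions, settings and the genome build are not given in the sources used here. GCRMA-type correction draws dim probesets together, and normalization between arrays hides a change shared by all genes.

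Of 53617 probesets, 16098 (30.0%) carried 1 symbol in the platform annotation, 0 carried several and 37519 had none. These gave 14884 genes, all matched to RefSeq (GRCh38.p14) by Entrez identifier. Differences between the 3 groups, taken from the labels, were tested with limma 3.58.1 in R 4.3.3 (lmFit, then eBayes, 1 fit of 9 arrays, 6 residual and 2.39 prior degrees of freedom). Adjustment was by Benjamini-Hochberg over the 14884 genes, with a threshold of 0.05. The median within-group SD was 0.0927. "Rose", "fell" and "changed" mean past that threshold. Folds are 2 raised to the log2 change.

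Genes and lists were chosen with earlier results of these data known. Every gene of the symbol pattern that passed in any comparison is named, with the brightest of each role and up to 4 per pathway list by absolute change; others are said to be named after their values were seen, or, within the symbol pattern, are given to complete a family. Alternatives changed normalization, probeset choice, the dim-gene filter, the features tested, the spread estimate, the arrays fitted and a replicate block, and left out each array. The procedure was also tested on simulated data. B3GAT3, B4GALT7, HAS1, HYAL1, HYAL3 and NDST2 are not analysed here.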

Additional observations from a re-analysis of the deposited data

How the results depend on the processing

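No log2 change of a named gene that passed the test, in the fit or under the alternative, changed sign. Values near 0 that did not pass could: for simvastatin plus mevalonate against DMSO, EXTL2 ran from -0.02 to 0.06, CHST15 from -0.03 to 0.04, CHST3 from -0.05 to 0.09, HS3ST5 from -0.03 to 0.02 and HS3ST3B1 from -0.10 to 0.16. Of all log2 changes recomputed, 1894 kept their side of the threshold, 109 lost it and 28 gained it. Of the 20 genes that passed with simvastatin against DMSO, 14 passed under every setting tried, and the exceptions were GPC6, HS3ST3B1, HS6ST2, CHPF2, CHST3 and CHST5. With simvastatin plus mevalonate against simvastatin 12 of 15 did, and the exceptions were HS3ST5, NDST1 and CHST3. Leaving out 1 array at a time gave 15 to 20 genes with simvastatin against DMSO, 13 to 16 with simvastatin plus mevalonate against simvastatin, and 0 to 1 with simvastatin plus mevalonate against DMSO, and for the pathway genes 15 to 19, 13 to 18 and 0 to 0. In simvastatin plus mevalonate against DMSO, leaving out dim genes called 4 genes, and an intensity trend with robust variances called 6, all lower; of the pathway genes these settings called 1 and 2. The first setting tests fewer genes (10164), and the cause was not tested for the other. SDC4 passed with simvastatin against DMSO after quantile normalization (adjusted p = 0.0379), without dim genes (0.0267) and with the trend (0.0218). Replicate numbers did not pair the arrays: deviations of same-numbered arrays correlated at -0.0806 to 0.0505 over 9 pairs and those of others at -0.0397 to 0.0668 over 18. With the replicate number as a block, 15 genes passed with simvastatin against DMSO (3 rose, 12 fell), 16 with simvastatin plus mevalonate against simvastatin and 0 with simvastatin plus mevalonate against DMSO, and 16, 15 and 0 pathway genes. Another background correction could not be run on summarised values. Without detection calls, changes of genes below the probeset median are poorly determined, and 46 of the 79 genes (58.2%) had a value repeated on at least 2 arrays, against 57.4% of all named genes.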
